A study of Mus musculus with 12 samples.

Results

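The response to growth hormone of mouse embryonic fibroblasts that carry STAT5A on a retroviral vector was set against the response of wild-type fibroblasts. The comparison used 8 of the 12 arrays of the study, 2 in each of 4 groups, and covered 18193 genes. S5 GH was Stat5-null cells infected with the STAT5A-containing vector and given growth hormone for 120 minutes. S5 was the same kind of cells with no stimulation. WT GH and WT were wild-type cells with and without the same hormone treatment. The comparison asks how far the hormone response of cells given STAT5A back matches that of wild-type cells. The cells of all groups were from the C57BL/6 strain. The remaining 4 arrays held Stat5-null cells (KO) with and without hormone and served here for the estimate of spread and for values named as KO. The design text calls the replicates biological duplicates. The labels name no empty vector, no vehicle, no hormone dose and no number of infected lines, so the genotype, the retroviral infection and the preparation of the cells cannot be told apart.

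Growth hormone binds its receptor, which activates the kinase JAK2 bound to it. JAK2 phosphorylates the transcription factors STAT5A and STAT5B, which pair up, enter the nucleus and bind sites with the core TTCNNNGAA. Known targets include the feedback inhibitors Cish and Socs2, the growth factor gene Igf1 in liver, and the repressor Bcl6, which STAT5 represses.

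For each gene, a response was the mean log2 signal of the hormone group minus that of the untreated group of the same cells. The difference reported below was the S5 response minus the WT response, so a positive value means that the hormone moved the gene further up, or less far down, in S5 cells. A gene counted as read in a genotype when the mean of its treated or untreated group was log2 4 or more, since values below 4 form the low mode of these arrays. By that rule 10441 genes were read in both genotypes, 304 in S5 only, 749 in WT only and 6699 in neither. Signals of fewer cells of one type and of less RNA per cell cannot be told apart in these bulk samples.

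The 2 Stat5a probe sets divided the genotypes. The Stat5a probe set of highest mean had 2.36 and 2.34 on the S5 GH arrays, 2.40 and 2.42 on the S5 arrays, 12.11 and 12.39 on the WT GH arrays, and 11.51 and 11.45 on the WT arrays. A second Stat5a probe set had 9.04 and 9.14 in S5 GH, against 9.86 and 9.90 in untreated S5, and was below 2.4 on every WT array. It was read only in the cells given the vector, with KO arrays below 2.3 too, and its signal fell by 0.79 with hormone in S5 cells (limma adjusted p = 0.000233, fit of every probe set). Stat5b was not read in S5 cells, with 1.94 and 1.94 in S5 GH against 1.96 and 1.96 in untreated S5, and had 9.33 and 9.39 in WT GH against 9.04 and 8.98 in untreated WT. In S5 cells, Stat5a was read and Stat5b was not. Ghr, the hormone's receptor, had 14.12 and 14.08 in S5 GH, 14.09 and 14.03 in S5, 13.95 and 13.90 in WT GH, and 13.90 and 13.98 in WT. The 95% interval of its difference of responses ran from -0.10 to 0.20.

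The cells differed in more than STAT5. Of 15 macrophage and blood markers, 11 were read in WT only, 3 in both genotypes (Cd14, Cd68 and Csf1r) and 1, Itgam, in neither. The mean of the 15 was 3.13 and 3.11 in S5 GH, 3.19 and 3.37 in S5, 10.80 and 10.72 in WT GH, and 9.11 and 10.75 in WT. The WT arrays stood far above the S5 arrays, and the first untreated WT array below the other WT arrays. By limma, 0 of the 15 markers passed the test for a difference of responses, and 2 had an unadjusted p under 0.05. Over all genes 2.92% passed it, so a list of this size would hold about 1 call or none. The median difference of the 15 was -0.93, with a median response of 0.57 in WT and -0.03 in S5. The part of these markers in the results below was not tested. Fibroblast markers averaged 11.22 and 11.38 in S5 GH, 11.67 and 11.57 in S5, 13.19 and 13.19 in WT GH, and 13.31 and 13.24 in WT, with 0 of 11 called and 1 at an unadjusted p under 0.05. The Gapdh 3′ minus 5′ control signal averaged 1.59 in S5 GH, 1.46 in S5, 0.91 in WT GH and 1.13 in WT. For Actb it averaged 3.12 in S5 GH, 3.05 in S5, 2.69 in WT GH and 3.07 in WT, so WT GH was the lowest group in both controls. The part of these values in the results below was not tested.

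The hormone response differed between the genotypes for 532 genes, which is 2.92% of those tested, by limma with Benjamini-Hochberg adjustment. The S5 response lay above the WT response for 256 genes (1.41%) and below it for 276 (1.52%), and 2452 genes had an unadjusted p under 0.05. The response of S5 cells by itself was called for 1433 genes (7.88%) and that of WT cells for 1092 (6%). Across the genes read in both genotypes, both responses correlated with r = 0.45 (Spearman 0.44), a description over genes, which are not independent replicates. The number of genes with a higher S5 response was 170 without the first untreated S5 array and 162 without the second. In all, 363 to 580 differences were called when any 1 of the 12 arrays was left out.

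**Figure D1:**
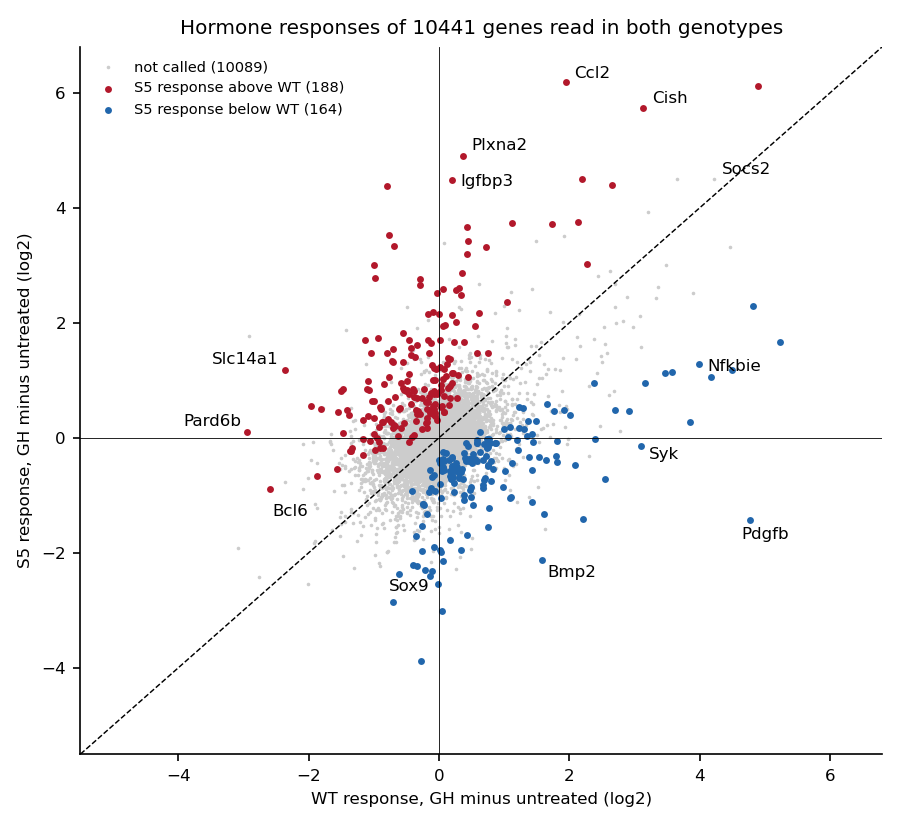
S5 response (vertical axis) against WT response (horizontal axis), in log2 units of hormone minus untreated, for the 10441 genes read in both genotypes. Red points mark the 188 genes whose S5 response was called above WT, blue points the 164 called below, and the dashed line equal responses; Igfbp3 and Plxna2 lie near 0 in WT and above 4 in S5, while Pdgfb lies at 4.77 in WT and -1.43 in S5.

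The differences were divided by where a gene was read. Among genes read in both genotypes, 188 had a higher and 164 a lower S5 response, together 3.37% of that class. Among genes read in S5 only, 27 were above and 23 below, together 16.4%. Among genes read in WT only, 31 were above and 71 below, together 13.6%. The remaining 28 genes stayed under log2 4 in both genotypes. In genes read in 1 genotype the difference is largely that genotype's own response, since the other stayed below log2 4. A gene that hormone raised from below log2 4 in 1 genotype entered such a class through its treated group. The higher shares of these classes are thus in part a result of the rule, and are a description. Called genes read in both genotypes, 352 in all, numbered 209 without the first untreated S5 array, 194 without the second, 225 without the first WT GH array, and 397 without either KO GH array.

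What each genotype did separates the 532 calls into kinds. Hormone raised the gene in S5 with no called change in WT for 140 genes, and lowered it in S5 with no called change in WT for 101. It raised the gene in WT with no called change in S5 for 143 genes, and lowered it in WT alone for 76. In 29 genes both genotypes rose by unequal amounts, 20 of them more in S5 and 9 more in WT. In 5 genes both fell by unequal amounts, and in 34 genes the genotypes moved in opposite directions, with both responses called. In the remaining 4 neither response passed the threshold by itself. Of the 532, 14 were also called in the response of KO cells, for which 0.308% of all genes were called.

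The feedback inhibitor Cish was the 1 gene of 25 measured STAT5 and growth hormone targets with a called difference, a share near the 2.92% of all genes. Cish had 9.33 and 9.17 in S5 GH, against 3.45 and 3.55 in untreated S5. In wild-type cells it had 8.22 and 8.07 in WT GH, against 4.84 and 5.17 in untreated WT. The hormone-treated S5 arrays stood above the treated WT arrays and the untreated S5 arrays below the untreated WT arrays. The rise was at least 38.1-fold in S5, whose untreated level lay under log2 4, and 8.80-fold in WT. The difference of responses was 2.61 ± 0.22 (SE, adjusted p = 0.00143), or 2.11 when means under 4 were set to 4. The KO response of Cish was -0.37 (adjusted p = 0.51).

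Socs2, another feedback inhibitor, rose in both genotypes. Its probe set of highest mean had 13.22 and 13.64 in S5 GH, against 8.88 and 8.96 in untreated S5, and 11.44 and 11.42 in WT GH, against 7.14 and 7.28 in untreated WT. The S5 response of 4.51 and the WT response of 4.22 differed by 0.29, with a 95% interval between -0.13 and 0.71. Other Socs2 probe sets read in S5 cells gave larger differences. A second one, with a mean of 10.93 in S5 GH, 4.72 in S5, 7.71 in WT GH and 2.59 in WT, had a difference of 1.09 (adjusted p = 0.276). Another rose by 5.11 in S5 and stayed under log2 4 on average in WT GH, with a difference of 3.94 (adjusted p = 0.0104). With the mean of its probe sets in place of the brightest one, Socs2 was called as responding more in S5 (adjusted p = 0.000174). Its measured difference therefore depended on the probe set.

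Bcl6, a transcriptional repressor, fell in both genotypes. It had 11.08 and 10.83 in S5 GH, against 12.11 and 12.23 in untreated S5, and 10.74 and 10.71 in WT GH, against 12.56 and 12.64 in untreated WT. The fall was 1.22 log2 units in S5 and 1.88 in WT, written as responses of -1.22 and -1.88. Their difference of 0.66, with an interval between 0.33 and 0.99, missed the threshold (adjusted p = 0.0594), and passed it in 5 of 21 alternative settings, the fit without the second S5 GH array among them (adjusted p = 0.0294). Igf1, whose protein carries much of the hormone's effect on growth, had 7.62 and 7.41 in S5 GH, 6.71 and 6.82 in S5, 11.83 and 12.01 in WT GH, and 11.46 and 11.87 in WT. Neither genotype's Igf1 response was called on this probe set, and the interval of the difference ran from -0.41 to 1.40. On a second Igf1 probe set the S5 rise of 0.59 was called (limma adjusted p = 0.0448, fit of every probe set). Its WT response was -0.24, and the difference of 0.83 was not called (limma adjusted p = 0.0862). Neither response was called on the other Igf1 probe sets. Jak2 had a difference of -0.22, with an interval between -0.45 and 0.01. The median difference over the 25 targets was 0.06, against 0.02 over all genes.

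Promoters of 4 genes that moved in both genotypes are shown because STAT5 sites have the core TTCNNNGAA, which was searched for and reads the same on both strands. The windows run from 250 bases before to 50 bases after the RefSeq start (build GRCm38.p6), 5′ to 3′ on the gene's strand, and the capitals mark every match. Those below were picked after their matches were seen. The Cish window is chr9:107296409-107296708 on the plus strand, and its pair of matches begins at the start site. The Gbp7 window is chr3:142530086-142530385 and the Steap4 window chr5:7960222-7960521, both on the plus strand. The Bcl6 windows are chr16:23981234-23981533 and chr16:23988803-23989102, both on the minus strand.
Cish: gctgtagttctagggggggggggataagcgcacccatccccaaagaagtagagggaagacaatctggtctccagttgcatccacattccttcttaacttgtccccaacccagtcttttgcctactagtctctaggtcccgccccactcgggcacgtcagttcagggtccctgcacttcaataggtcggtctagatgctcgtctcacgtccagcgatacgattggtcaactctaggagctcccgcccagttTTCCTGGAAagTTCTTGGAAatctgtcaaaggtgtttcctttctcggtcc
Gbp7: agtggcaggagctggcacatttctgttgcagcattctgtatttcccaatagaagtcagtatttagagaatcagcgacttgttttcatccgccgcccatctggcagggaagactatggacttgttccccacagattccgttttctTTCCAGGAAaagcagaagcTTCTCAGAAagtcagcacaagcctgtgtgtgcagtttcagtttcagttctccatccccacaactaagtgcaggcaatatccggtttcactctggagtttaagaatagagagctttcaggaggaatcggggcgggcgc
Steap4: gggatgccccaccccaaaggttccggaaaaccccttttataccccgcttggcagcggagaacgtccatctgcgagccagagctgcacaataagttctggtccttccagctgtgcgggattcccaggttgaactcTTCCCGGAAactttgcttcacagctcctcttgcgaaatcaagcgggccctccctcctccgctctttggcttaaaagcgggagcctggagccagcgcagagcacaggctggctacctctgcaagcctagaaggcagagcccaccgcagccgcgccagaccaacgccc
Bcl6, first window: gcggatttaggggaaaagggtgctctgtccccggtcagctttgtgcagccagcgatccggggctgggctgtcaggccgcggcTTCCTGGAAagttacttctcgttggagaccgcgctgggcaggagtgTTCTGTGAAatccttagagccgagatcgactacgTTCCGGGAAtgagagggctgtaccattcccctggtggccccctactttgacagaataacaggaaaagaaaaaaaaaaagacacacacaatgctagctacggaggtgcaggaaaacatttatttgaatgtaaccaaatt
Bcl6, second window: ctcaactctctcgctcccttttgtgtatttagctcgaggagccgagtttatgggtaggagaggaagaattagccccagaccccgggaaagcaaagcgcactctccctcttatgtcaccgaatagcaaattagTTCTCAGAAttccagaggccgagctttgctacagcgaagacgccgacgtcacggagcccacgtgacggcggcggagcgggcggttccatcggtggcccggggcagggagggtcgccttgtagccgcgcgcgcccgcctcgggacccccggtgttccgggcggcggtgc

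Of all 32851 windows, 2726 (8.30%) held the motif. By gene, 22 of 125 genes with a window that rose in both genotypes held it (17.6%), as did 7 of 119 that fell in both (5.88%) and 1239 of 14452 tested (8.57%). Among called genes read in both genotypes, 17 of 146 with a higher S5 response held it (11.6%) and 12 of 130 with a lower S5 response (9.23%), against 697 of 8538 read in both (8.16%). The share was thus highest in genes that rose in both genotypes, and these counts are a description of letters in a window.

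Among genes read in both genotypes, 10 of the 14 largest differences above WT were rises in S5 with no called change in WT. Plxna2, a semaphorin receptor subunit, had 10.35 and 10.25 in S5 GH, against 5.65 and 5.15 in untreated S5. In wild-type cells Plxna2 had 8.83 and 8.70 in WT GH, against 8.40 and 8.38 in untreated WT. Untreated S5 cells stood apart as the low group, and the treated S5 arrays were the highest of the 8. The rise was 29.8-fold in S5, and the difference of responses was 4.53 ± 0.34 (SE, adjusted p = 0.000671).

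Igfbp3, the main carrier of insulin-like growth factors in blood, had 9.16 and 9.23 in S5 GH, against 4.80 and 4.61 in untreated S5. It had 12.50 and 12.23 in WT GH, against 12.15 and 12.16 in untreated WT. All S5 arrays stayed below all WT arrays, and the hormone closed part of that gap, with a 22.4-fold rise in S5. The difference of responses was 4.28 ± 0.16 (SE, adjusted p = 1.58e-05). A second Igfbp3 probe set stayed under log2 4 on every S5 array. Its difference of 0.80 was not called (limma adjusted p = 0.0923, fit of every probe set). Serpinb1a, an inhibitor of neutrophil proteases, had 9.57 and 9.64 in S5 GH, against 5.95 and 4.51 in untreated S5, and 7.91 and 7.09 in WT GH, against 8.45 and 8.13 in untreated WT. Its untreated S5 arrays lay far apart, and the difference was 5.17 ± 0.68 (SE, adjusted p = 0.00926).

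Ccl2, a chemokine that attracts monocytes, rose in both genotypes and more in S5. Ccl2 had 12.68 and 12.33 in S5 GH, against 6.36 and 6.27 in untreated S5, and 14.57 and 14.56 in WT GH, against 12.71 and 12.53 in untreated WT. The rise was 72.7-fold in S5 and 3.85-fold in WT, and S5 cells reached with hormone about the level of untreated WT cells. The difference was 4.24 ± 0.21 (SE, adjusted p = 7.39e-05). Ccl2 also rose in KO cells, by 2.14 (adjusted p = 0.0042).

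Bach2, a transcriptional repressor of the B-cell lineage, had 7.54 and 7.81 in S5 GH, against 4.28 and 4.21 in untreated S5, and 9.41 and 9.31 in WT GH, against 8.95 and 8.87 in untreated WT. Tmem131l, a membrane protein, was higher in untreated S5 than in untreated WT cells: it had 12.40 and 12.45 in S5 GH, against 9.83 and 9.70 in untreated S5, and 8.41 and 8.31 in WT GH, against 8.78 and 8.52 in untreated WT. Tent5c, a poly(A) polymerase, Bbs12, a ciliary chaperonin-like protein, Tchh, a hair follicle protein, Plch1, a phospholipase C, and Ccdc141 also rose in S5 with no called change in WT. Pard6b, a cell polarity protein, fell in WT, where it had 4.87 and 4.12 in WT GH against 7.43 and 7.44 in untreated WT, while S5 cells had 6.39 and 6.83 with hormone against 6.37 and 6.65 without. The last of the 14, Slc14a1 and Rgcc, moved in opposite directions and are described below. The differences of these 14 genes ran from 2.67 to 5.17, and each kept its call when any 1 array was left out.

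The untreated level of S5 cells was part of the picture. Of the 188 genes read in both genotypes with a higher S5 response, untreated S5 cells were below untreated WT cells in 115 and above them in 73. In 44 of the 188 (23.4%) untreated S5 cells lay at least 1 log2 unit below both WT and KO cells, against 484 of the 10441 genes read in both genotypes (4.64%). Plxna2 was such a gene, with 10.09 and 10.08 in untreated KO cells, and so were Igfbp3 (11.13 and 11.35), Tchh (8.97 and 9.50) and Bach2 (8.15 and 8.63). The same low untreated S5 level was found in 23 of the 164 genes read in both genotypes with a lower S5 response. That share was smaller than among the 188 but larger than among all genes read in both, so the low level was not particular to higher S5 responses. The untreated arrays enter the difference of responses, so a low untreated S5 value raises it by construction, and these counts are a description. After hormone the distance between the genotypes was larger in 113 of the 188 and smaller in 75. Among the 164 genes with a lower S5 response, it was larger in 121 and smaller in 43.

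**Figure D2:**
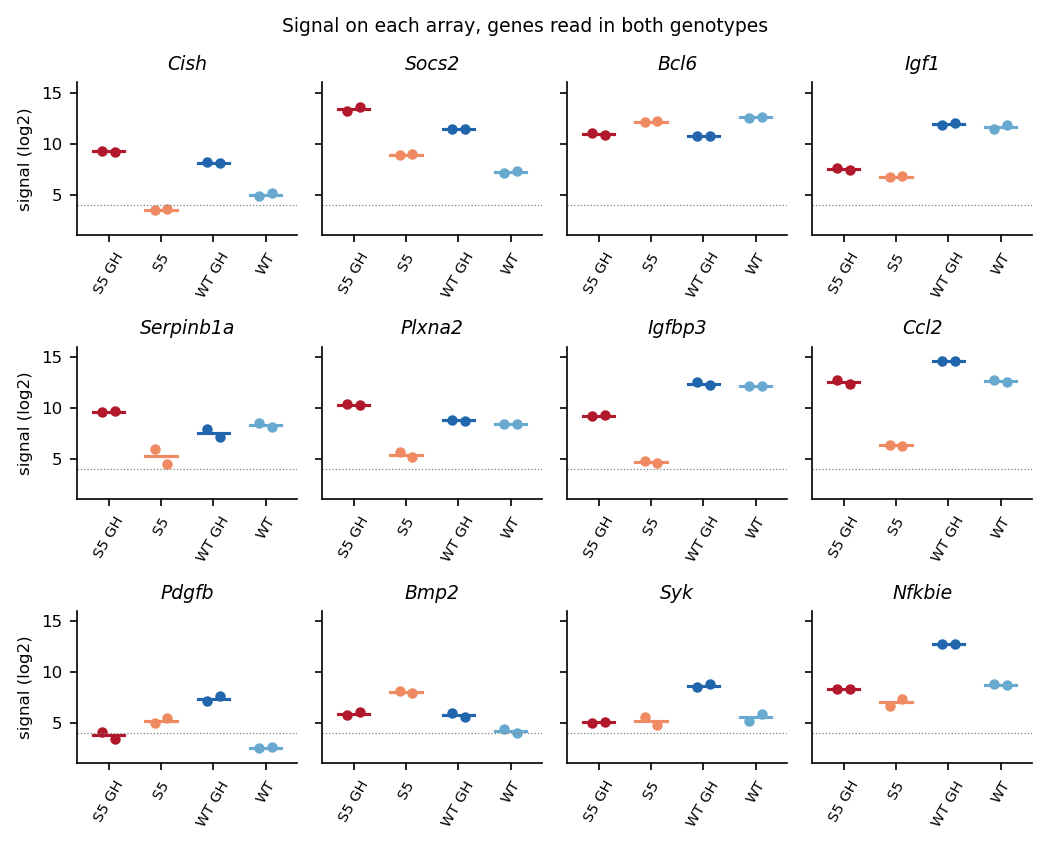
Log2 signal on each array (points) and group mean (bars) for 12 genes read in both genotypes, with S5 GH, S5, WT GH and WT from left to right; the dotted line is log2 4. Cish, Serpinb1a, Plxna2, Igfbp3 and Ccl2 rise steeply in S5, and Pdgfb, Syk and Nfkbie rise in WT with a smaller rise or a fall in S5.

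Among genes read in both genotypes with a lower S5 response, 12 of the 14 largest differences were genes that rose in WT. Nfkbie, an inhibitor of NF-kB, had 8.30 and 8.29 in S5 GH, against 6.68 and 7.36 in untreated S5. It had 12.73 and 12.73 in WT GH, against 8.76 and 8.71 in untreated WT. Both genotypes rose, by 1.28 in S5 and 3.99 in WT, with a difference of -2.71 ± 0.31 (SE, adjusted p = 0.00524). Syk, a tyrosine kinase of immune receptor signalling, had 4.98 and 5.11 in S5 GH, against 5.59 and 4.78 in untreated S5, and 8.47 and 8.77 in WT GH, against 5.20 and 5.85 in untreated WT. The untreated levels of Syk overlapped between the genotypes, and WT cells alone rose, with a difference of -3.24 ± 0.44 (SE, adjusted p = 0.0112). On a second Syk probe set read in both genotypes the WT response was 1.81 and not called (limma adjusted p = 0.0905, fit of every probe set). Its difference of -2.82 was not called either (limma adjusted p = 0.0900).

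Other genes fell in S5 cells and held their level in WT cells. Sox9, the transcription factor of cartilage formation, had 5.73 and 6.17 in S5 GH, against 8.49 and 8.50 in untreated S5, and 7.63 and 7.63 in WT GH, against 7.76 and 7.52 in untreated WT. The S5 arrays were above WT without hormone and below WT with it, and the difference was -2.53 ± 0.31 (SE, adjusted p = 0.00651). Gli2, an effector of hedgehog signalling, had 3.69 and 5.26 in S5 GH, against 8.37 and 8.34 in untreated S5, and 9.52 and 9.45 in WT GH, against 9.48 and 10.04 in untreated WT. Its treated S5 arrays differed by more than 1 log2 unit.

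Gli2 was 1 of 8 of the 14 largest negative differences whose call was lost when certain arrays were left out in turn, the others being Cxcl2, Ifit1, Tlr2, Nr4a3, Rnd1, P2rx5 and Tnfaip3. Each of these 8 was lost under between 5 and 10 of the 12 omissions, the second untreated S5 array among them in every gene, with adjusted p between 0.0507 and 0.139. Pdgfb, Bmp2, Syk, Egln3, Nfkbie and Sox9 kept their calls under all 12.

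Hormone moved 34 genes in opposite directions in S5 and WT cells, with both responses and their difference called. In 15 the gene rose in S5 and fell in WT, and in 19 it fell in S5 and rose in WT. Pdgfb, a chain of platelet-derived growth factor, had 4.07 and 3.44 in S5 GH, against 4.94 and 5.43 in untreated S5. It had 7.08 and 7.57 in WT GH, against 2.47 and 2.63 in untreated WT. Untreated S5 cells stood above untreated WT cells, and the order was turned round with hormone, with a difference of -6.20 ± 0.37 (SE, adjusted p = 0.000207), or -4.51 when means under 4 were set to 4. Bmp2, a bone morphogenetic protein, had 5.70 and 6.05 in S5 GH, against 8.12 and 7.87 in untreated S5, and 5.94 and 5.58 in WT GH, against 4.37 and 3.998 in untreated WT. The genotypes met at about the same level after hormone, from opposite sides, with a difference of -3.70 ± 0.37 (SE, adjusted p = 0.00287). Egln3, an oxygen-sensing prolyl hydroxylase, fell by 1.32 in S5 and had a response of 1.61 in WT. On a second Egln3 probe set the S5 response was -0.42 and not called (limma adjusted p = 0.387, fit of every probe set).

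In the other direction, Slc14a1, a urea transporter, had 7.79 and 7.98 in S5 GH, against 6.53 and 6.88 in untreated S5, and 4.42 and 4.34 in WT GH, against 6.64 and 6.86 in untreated WT. The untreated levels of Slc14a1 overlapped between S5 and WT, so the genotypes parted only with hormone, by 3.55 ± 0.24 (SE, adjusted p = 0.000468). Rgcc, a regulator of cell cycle progression, had 12.22 and 12.27 in S5 GH, against 10.47 and 10.54 in untreated S5, and 9.32 and 9.04 in WT GH, against 9.90 and 10.32 in untreated WT. On a second Rgcc probe set the WT response was -0.33 and not called (limma adjusted p = 0.557, fit of every probe set). Dact1, a modulator of Wnt signalling, rose by 0.82 in S5 and had a response of -1.50 in WT, from untreated levels of 8.47 and 8.57 in S5 and 8.30 and 8.61 in WT. None of these genes was called in KO cells. The count of 34 was 20 without the first S5 GH array, 14 and 15 without the first and second untreated S5 arrays, and 19 and 17 without the first and second WT GH arrays. It was 52 without either KO GH array.

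**Figure D3:**
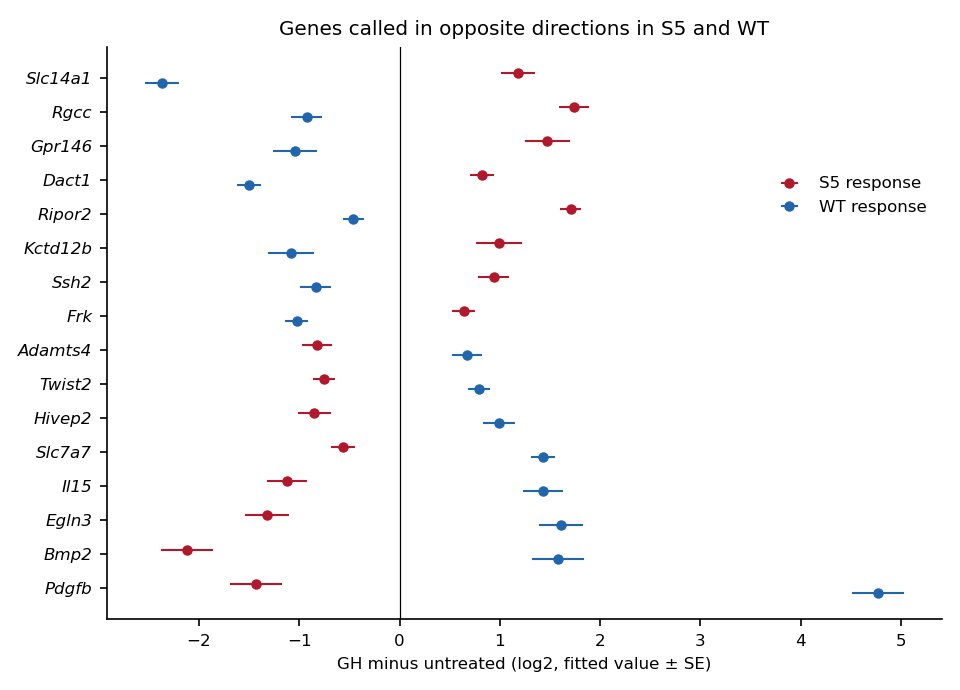
Fitted responses (log2, hormone minus untreated, ± SE) of 16 genes called in opposite directions, S5 in red and WT in blue. Slc14a1 to Frk, the upper 8 genes, rose in S5 and fell in WT, and Adamts4 to Pdgfb fell in S5 and rose in WT.

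Genes read in S5 only held inductions in S5. Ikzf4, Slc45a3, Apln, Dio2 and Nppc had untreated S5 means under log2 4 and entered this class through their S5 GH values. Ikzf4, a zinc finger transcription factor of the Ikaros family, had 8.05 and 8.16 in S5 GH, against 2.84 and 3.02 in untreated S5. It had 3.67 and 3.83 in WT GH, against 2.94 and 3.16 in untreated WT, all below log2 4, although that small WT change passed the test (adjusted p = 0.0079). The rise was at least 17.2-fold in S5, and the difference was 4.47 ± 0.14 (SE, adjusted p = 4.57e-06), or 4.10 with means under 4 set to 4. Slc45a3, a solute carrier, had 8.01 and 8.52 in S5 GH, against 4.06 and 3.82 in untreated S5, with 2.71 and 2.74 in WT GH and 2.78 and 2.82 in untreated WT. Apln, a peptide hormone gene, had 7.22 and 6.55 in S5 GH, against 3.19 and 2.93 in untreated S5, and rose at least 7.39-fold. Dio2, an enzyme that activates thyroid hormone, and Nppc, the C-type natriuretic peptide gene, likewise rose in S5, from levels under log2 4 to 6.01 and 6.13 for Dio2 and 5.88 and 5.38 for Nppc.

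Ddx4, Nts and Gnal were read in S5 before hormone and rose further. Nts, the neurotensin gene, had 8.50 and 8.74 in S5 GH, against 6.72 and 7.29 in untreated S5, and under 2.4 on every WT array. Genes read in S5 only that fell included Krtap1-5, a keratin-associated protein, with 3.25 and 3.30 in S5 GH, against 6.37 and 6.12 in untreated S5, and Kctd14, with 6.32 and 5.89 in S5 GH, against 8.17 and 7.81 in untreated S5. Their differences were -2.85 ± 0.14 (SE, adjusted p = 8.41e-05) and -1.77 ± 0.22 (SE, adjusted p = 0.00734), or -2.25 and -1.88 with means under 4 set to 4. The 8 largest rises kept their calls with any 1 array left out. Of the 8 largest falls, Dmrta1, Adamts18, Rasgrf2, Tppp and Tbx2 lost theirs under 5 to 10 of the 12 omissions, both untreated S5 arrays among them, with adjusted p between 0.0551 and 0.145.

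Genes read in WT only were led by inflammatory genes that rose steeply with hormone in WT cells. Il1b, Saa3 and Csf2 had untreated WT means under log2 4 and entered this class through their WT GH values. Il1b, a cytokine of innate immunity, had 2.18 and 2.18 in S5 GH, against 2.19 and 2.20 in untreated S5. It had 11.81 and 11.76 in WT GH, against 2.35 and 2.49 in untreated WT. No S5 array gave signal of Il1b, and the WT rise was at least 221-fold. The acute phase gene Saa3 had 12.20 and 12.26 in WT GH, against 3.10 and 2.93 in untreated WT, with a WT rise of at least 299.7-fold, and had 2.40 and 2.46 in S5 GH, against 2.41 and 2.43 in untreated S5. Csf2, a growth factor of granulocytes and macrophages, had 9.82 and 9.66 in WT GH, against 2.21 and 2.20 in untreated WT, at least 53.3-fold.

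Tnf, Ccl4, Clec4e, Cd69 and Ccl20, genes of innate immune cells and of inflammation, made up the rest of the 8 largest. All 8 stayed below log2 3 in S5 with and without hormone and kept their calls with any 1 array left out. In the same WT arrays the macrophage markers lay at the levels given above, where the mean of the markers in S5 cells was below 4. Tnf, Ccl4 and Clec4e were higher on the second untreated WT array, at 3.26, 4.25 and 4.77, than on the first, at 2.03, 2.02 and 2.29. In KO cells the response of Il1b was -0.01, of Tnf 0.04 and of Saa3 0.75 (adjusted p = 0.29).

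Other genes read in WT only fell with hormone there. Palmd had 3.59 and 3.49 in WT GH, against 6.26 and 6.20 in untreated WT, and 2.41 and 2.45 in S5 GH, against 2.44 and 2.47 in untreated S5. Wscd2 had 4.45 and 4.26 in WT GH, against 6.62 and 6.37 in untreated WT. Gucy1a1, a subunit of the nitric oxide receptor, had 6.53 and 6.53 in WT GH, against 7.96 and 8.16 in untreated WT. Their differences, positive because WT fell, were 2.66 ± 0.20, 2.11 ± 0.13 and 1.65 ± 0.23 (SE, adjusted p = 0.000615, 0.000207 and 0.0123), or 2.23, 2.14 and 1.53 with means under 4 set to 4. Among the 8 largest falls in WT, Tfr2 and Agtr2 lost their calls under 6 of the 12 omissions, both untreated S5 arrays among them, with adjusted p between 0.0507 and 0.0904.

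**Figure D4:**
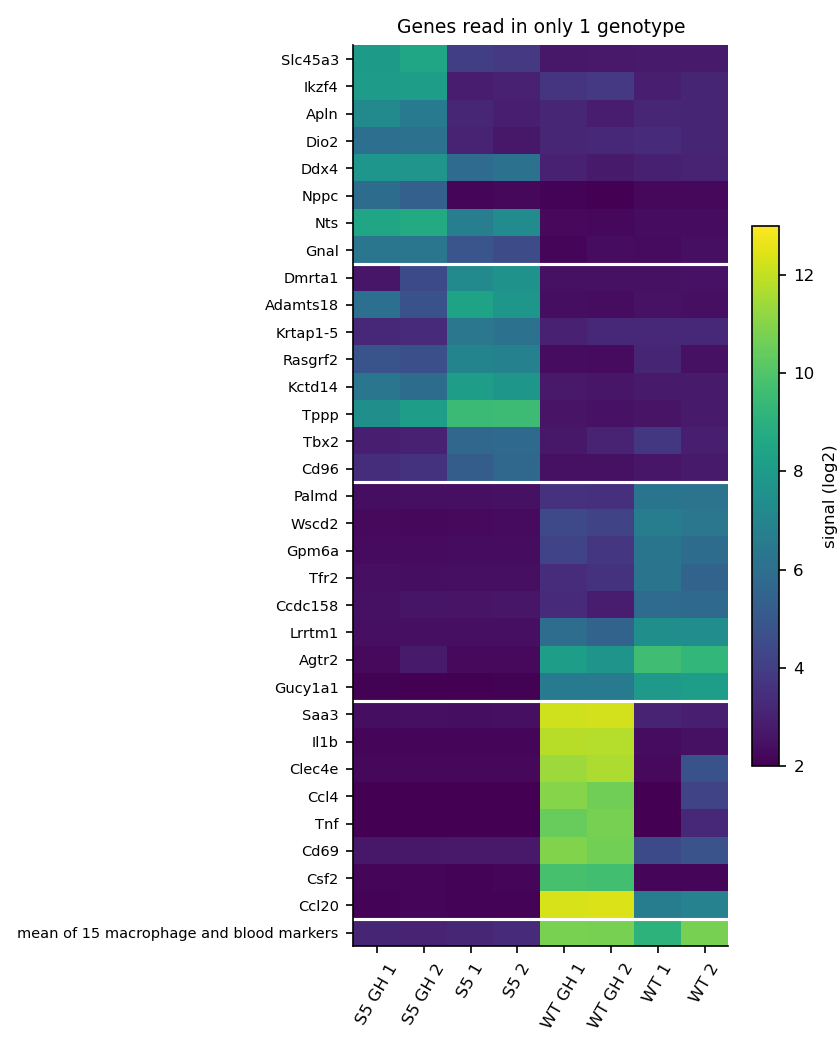
Log2 signal (colour) of 32 genes read in 1 genotype only on each array, S5 GH, S5, WT GH and WT from left to right, in blocks of S5 rises, S5 falls, WT falls and WT rises from top to bottom. The lowest line is the mean of the 15 macrophage and blood markers, which lies between 3.11 and 3.37 on S5 arrays and between 9.11 and 10.80 on WT arrays.

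Many genes moved in the same direction in both genotypes. The response was called in the same direction in both genotypes for 304 genes, 152 up and 152 down. For 223 of them, all read in both genotypes, the whole 95% interval of the difference lay within 1 log2 unit either side of 0, so a difference beyond 2-fold lay outside it: 94 rose and 129 fell. Of the 304, 34 were nevertheless called different in size, 6 of them among the 223, and for 53 neither the test nor the interval settled it. After Socs2, the largest such rises were in Gbp7, an interferon-inducible GTPase, and Steap4, a metalloreductase.

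Gbp7 had 8.32 and 8.15 in S5 GH, against 5.36 and 5.28 in untreated S5, and 12.16 and 12.005 in WT GH, against 9.25 and 9.65 in untreated WT. The S5 arrays were all below the WT arrays, with responses of 2.91 in S5 and 2.63 in WT and an interval of the difference between -0.44 and 0.99. A second Gbp7 probe set was read in WT only, with a difference of -3.96 (adjusted p = 0.00132). With the mean of its probe sets in place of the brightest one, Gbp7 was called as responding differently (limma adjusted p = 0.000384). Steap4 had 5.52 and 5.45 in S5 GH, against 2.80 and 2.82 in untreated S5, and 6.09 and 5.61 in WT GH, against 3.16 and 3.14 in untreated WT. All its untreated values lay under log2 4, so both rises are lower bounds and cannot show that their sizes were alike. Hivep3, Taf4b, Ppan, Sphk1 and Dok1 completed the list of rises.

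The falls in both genotypes with the interval inside 1 log2 unit included Bcl6, whose interval was wholly positive. Among them too were Ackr3, an atypical chemokine receptor, and Ahr, the aryl hydrocarbon receptor. Ackr3 had 10.56 and 10.89 in S5 GH, against 12.30 and 12.23 in untreated S5, and 10.59 and 10.31 in WT GH, against 11.57 and 11.66 in untreated WT. Ahr had 10.25 and 10.09 in S5 GH, against 11.40 and 11.57 in untreated S5, and 9.44 and 9.30 in WT GH, against 10.46 and 10.46 in untreated WT. Vsir, an immune checkpoint protein, fell by 1.49 in S5 and had a response of -1.51 in WT, with an interval of the difference between -0.58 and 0.62. Intervals depend on how many arrays there are, and the count of 223 was 106 without the first S5 GH array, 93 and 66 without the first and second S5 arrays, 144 and 72 without the first and second WT GH arrays, and 99 and 91 without the first and second WT arrays.

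Described by gene list, the chemokine, inflammatory and interferon lists held lower S5 responses mainly among genes read in WT only. The counts here are read beside the shares over all genes, 1.41% above and 1.52% below, and the 13.6% called among genes read in WT only. These lists too were chosen with earlier results of these data known. Of 20 chemokines, 3 were called above and 10 below, with a median difference of -1.89. Among the 10 chemokines read in both genotypes, 3 were above and 3 below, with a median of -0.33. Those above were Ccl2, Ccl7 and Cxcl10, and 7 of those below, Ccl20, Ccl3, Ccl4, Ccl5, Cxcl3, Cxcl9 and Cxcl11, were read in WT only. Ccl7 rose by 3.76 in S5 and 2.14 in WT. Cxcl10 rose by 6.11 in S5 and 4.89 in WT, but its untreated S5 mean was 2.19, and with means under 4 set to 4 the difference was -0.59. Of 22 inflammatory cytokines and effectors, 2 were above and 11 below (median -2.35, or -1.61 with means under 4 set to 4). In this list 13 genes were read in WT only, and among the 5 read in both genotypes 1 was above and 1 below (median -0.28). Vcam1, an adhesion molecule, was above, with a response of 2.36 in S5 and 1.04 in WT, while Il6 and Lif were below. Genes of the lists that lie outside the rule for named genes, such as Ccl7, Cxcl10, Vcam1 and Ifi47, were picked after their values were seen. Calls were lost with 1 array or another left out for 5 of the 13 called chemokines (Ccl3, Ccl7, Cxcl10, Cxcl16 and Cxcl2) and 3 of the 13 called inflammatory genes (Icam1, Lif and Vcam1), with adjusted p up to 0.143.

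Of 16 NF-kB subunits and feedback genes, 0 were above and 6 below (median -0.79, or -0.62 among the 14 read in both genotypes): Nfkbie, Nfkbib, Tnfaip3 and Tnip1, read in both genotypes, and Rel and Traf1, read in WT only. The WT response was a called rise in 14 of the 16 and the S5 response in 10, and no member was called as falling in either. Of 29 interferon response genes, 2 were above and 9 below (median -0.96). Among the 15 read in both genotypes, 2 were above and 3 below (median -0.83). Rsad2, an antiviral enzyme, had 11.27 and 10.94 in WT GH, against 6.48 and 7.29 in untreated WT, and was below 2.4 on every S5 array. Ifi47, a GTPase, was above, with a response of 4.40 in S5 and 2.66 in WT, or a difference of 0.35 with means under 4 set to 4. The shares called, 37.5% of the NF-kB list and 37.9% of the interferon list, stand beside 2.92% of all genes. The medians are read beside the 0.02 of all genes, and beside the macrophage marker levels of the WT arrays. With 1 array or another left out, Nfkbib and Tnfaip3 lost their calls, as did 6 of the 11 called interferon genes (Cxcl10, Ddx58, Ifi47, Ifit1, Ifit3 and Oas1a), with adjusted p up to 0.127.

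**Figure D5:**
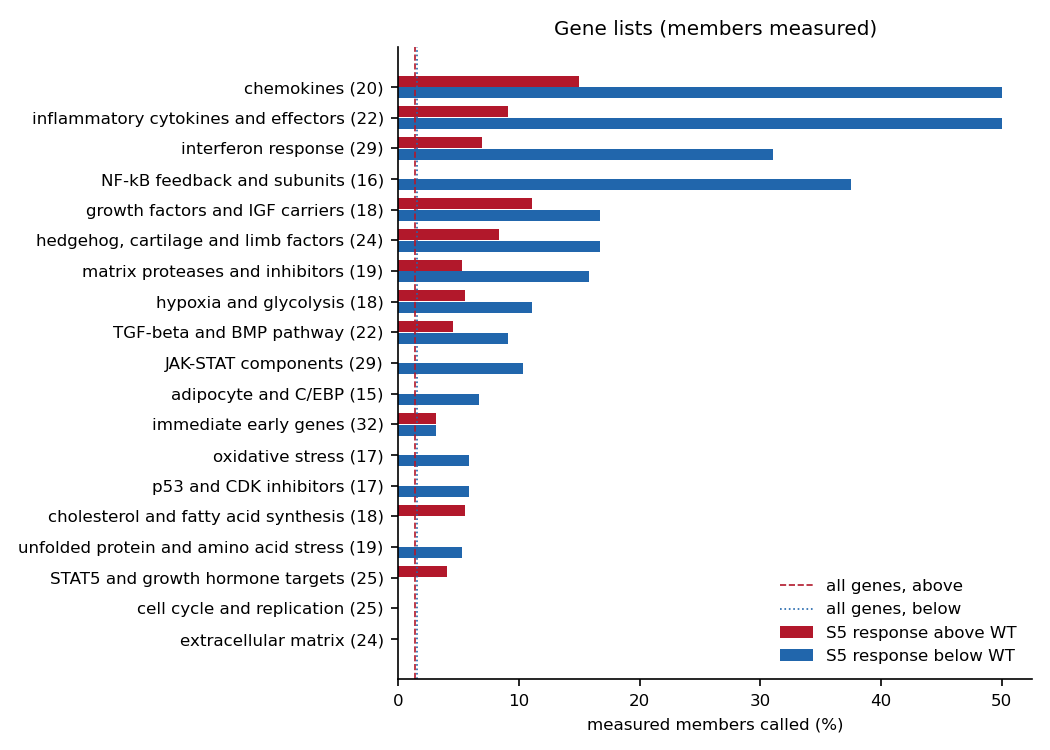
Percent of measured members called above (red) or below (blue) in each of 19 gene lists, with the number measured in brackets; the dashed and dotted lines are the shares over all genes, 1.41% and 1.52%. Chemokines and inflammatory genes reach 50% below, and the matrix and cell cycle lists hold no call.

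Growth and patterning genes went both ways. Of 18 growth factors and IGF carriers, 2 were above, Igfbp3 and Vegfc, and 3 below, Pdgfb, Fgf7 and Hbegf. Fgf7, a growth factor made by mesenchyme, had 12.77 and 12.62 in S5 GH, against 12.54 and 12.52 in untreated S5, and 12.79 and 12.61 in WT GH, against 11.54 and 11.39 in untreated WT. Of 24 hedgehog, cartilage and limb factors, 2 were above, Gli3 and Msx1, and 4 below, Gli2, Sox9, Tbx2 and Twist2. Twist2, a mesenchymal transcription factor, had 7.86 and 7.87 in S5 GH, against 8.73 and 8.52 in untreated S5, and 13.18 and 13.26 in WT GH, against 12.58 and 12.27 in untreated WT. In the TGF-beta and BMP list, with 22 measured, Bmp4 was above and Bmp2 and Smad3 below. Bmp4 had 13.74 and 13.75 in S5 GH, against 13.71 and 13.81 in untreated S5, and 10.92 and 11.13 in WT GH, against 12.17 and 12.20 in untreated WT. The shares called were 27.8% of the growth factor list, 25% of the hedgehog list and 13.6% of the TGF-beta list. They stand beside 2.92% of all genes and 3.37% of genes read in both genotypes. The lists were chosen with earlier results of these data known, so these shares are a description and no support for a list. Of these 14 calls, Vegfc, Hbegf, Gli2, Tbx2 and Smad3 were lost with 1 array or another left out, with adjusted p up to 0.135.

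Of 19 matrix proteases and inhibitors, Adamts1 was above and Adamts4, Adamts18 and Mmp10 were below. Of 29 JAK-STAT components, 0 were above and 3 below, Sh2b3, Stat5a and Stat5b, of which the last pair was read in WT only by the probe sets of highest mean. Of 32 immediate early genes, Nr4a1 was above and Nr4a3 below, both being nuclear receptors. Cebpd, a transcription factor of the acute phase and of fat cell formation, was the 1 called gene of 15 in its list, with 10.65 and 10.45 in S5 GH, against 10.91 and 10.87 in untreated S5, and 12.62 and 12.56 in WT GH, against 11.13 and 10.98 in untreated WT. Its difference was -1.88 ± 0.14 (SE, adjusted p = 0.000671). In the hypoxia and glycolysis list, with 18 measured, Pfkp was above and Egln3 and Pfkfb3 were below. Single calls came from the p53 list (Plk2, below), the amino acid stress list (Chac1, below), the oxidative stress list (Nfe2l2, below) and the lipid synthesis list (Elovl6, above). By limma, 0 of 24 extracellular matrix genes and 0 of 25 cell cycle genes were called, with median differences of 0.01 and -0.06, and 2 and 0 had an unadjusted p under 0.05. At the 2.92% of all genes, lists of this size would hold about 1 call or none, so neither these counts nor the single calls set a list apart. Left-out arrays cost the calls of Stat5b, Sh2b3, Nr4a1, Nr4a3, Adamts18, Plk2, Chac1, Pfkfb3 and Elovl6, with adjusted p up to 0.145. Plk2 was lost only without the second untreated S5 array.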

How the data were processed

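RNA of mouse embryonic fibroblasts was measured on Affymetrix arrays of 45101 probe sets. The deposited values are log2 signals, 1 table for 12 arrays, ranging between 0.99 and 15.9. GCOS and RMA are named in the submitters' processing notes, with no version or role. Probe sets were named through GEO's platform annotation: 34945 had 1 gene, 932 several and 9160 none, and 64 were controls. Each of 18193 genes was represented by its probe set of highest mean. Of these genes, 18032 were found in the RefSeq table.

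limma 3.58.1 (R 4.3.3) was fitted with 1 mean for each of 6 groups on all 12 arrays (6 residual degrees of freedom), with two-sided tests, Benjamini-Hochberg adjustment over all genes and a threshold of 0.05. The script was tested on simulated data. Named genes were the 14 largest differences of each sign among genes read in both genotypes, 8 of each sign for genes read in 1 genotype, for opposite responses and for like responses, up to 4 of each gene list, and 8 fixed genes. The comparison, members, lists and rule were chosen with earlier results of these data known. The 25 alternatives were chosen alongside them. Promoter windows came from RefSeq (GRCm38.p6). Arrays give no read depth: their number limits the precision.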

Additional observations from a re-analysis of the deposited data

Results flagged for a closer look

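In 16 named genes both hormone responses were called and ran in opposite directions, and limma's test of the difference itself passed the threshold for each. The differences below are the S5 minus the WT response, on the log2 scale, from 2 arrays a group. In the fit of every probe set, other probe sets read in both genotypes did not always repeat the opposite calls. Rgcc and Hivep2 had no called WT response on another probe set, and Egln3 no called S5 response. Ssh2 and Ripor2 had neither response called on another probe set, while Adamts4 and Frk each repeated both calls on another. In that fit the probe set of highest mean also missed the threshold for the WT response of Adamts4, Ripor2 and Gpr146 (limma adjusted p = 0.0598, 0.0611 and 0.0523). Kctd12b missed it there for both responses (limma adjusted p = 0.0507 in S5 and 0.0533 in WT).

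In 8 genes the S5 response was upward and the WT response downward. The difference was 3.55 for the urea transporter Slc14a1, 2.67 for the cell cycle regulator Rgcc, 2.52 for the receptor Gpr146 and 2.32 for the Wnt modulator Dact1. It was 2.17 for Ripor2, 2.07 for Kctd12b, 1.78 for the cofilin phosphatase Ssh2 and 1.67 for the tyrosine kinase Frk. Kctd12b lost its call with any of 4 arrays left out (adjusted p between 0.0502 and 0.0666): the first S5 GH, the second untreated S5 and both WT GH arrays.

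In the other 8 the S5 response was downward and the WT response upward. The difference was -6.20 for the growth factor Pdgfb, -3.70 for Bmp2, -2.93 for the prolyl hydroxylase Egln3 and -2.55 for the cytokine Il15. It was -1.99 for the amino acid transporter Slc7a7, -1.84 for the zinc finger factor Hivep2, -1.55 for Twist2 and -1.49 for the matrix protease Adamts4. Calls of the difference in these genes were kept with any 1 of the 12 arrays left out, which does not cover the calls of each single response.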

How the results depend on the processing

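None of the 101 called named genes changed direction under any alternative, and 71 kept their call under all 21 alternatives that used no block. Of the 532 calls, 304 to 378 were kept when 1 S5 or WT array was left out. A group left with 1 array was assumed to vary like the others. Leaving out 1 of the 12 arrays gave 363 to 580 called genes in all, 162 to 278 with a higher and 201 to 314 with a lower S5 response. It gave 194 to 397 read in both genotypes, 14 to 52 with opposite responses, and 66 to 239 that moved alike within 1 log2 unit. Array weights gave 827 called genes, 388 higher and 439 lower in S5, with 593 read in both genotypes, 67 opposite and 363 alike. The 8 S5 and WT arrays alone gave 63 opposite genes. The cause of these changes was not tested. Centring each array on its median gave 219 higher and 318 lower.

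The replicate numbers did not pair the samples: same-numbered arrays deviated together with r = 0.08 in S5 and -0.04 in WT over 11003 genes. With the replicate block, 454 genes were called, 424 of them among the 532, and Nr4a3, Agtr2, Rnd1 and P2rx5 lost their calls. With the block within genotype, 244 were called, 114 higher and 130 lower, with 128 read in both genotypes, 13 opposite and 72 alike, and 33 named genes lost their calls.

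With 2 arrays a group, the median standard error of the difference was 0.19 log2 units among genes read in both genotypes. Values below log2 4 carry no order, so folds against them are lower bounds.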
